A study of Mus musculus with 30 samples.

Results

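The cytosolic ribosomal protein genes encode the proteins that, with ribosomal RNA, make up the small and the large subunit of the ribosome. They were taken by name from the deposited table: a symbol of Rpl or Rps with a number and any suffix letter a, x, y or l, plus Rplp0, Rplp1, Rplp2 and Rpsa, with no named pseudogene and no S6 kinase gene. Of 47069 genes listed, 84 had such a name, and 82 had a summed count of at least 50 over the 30 libraries. These are 50 genes of the large subunit and 32 of the small subunit. The 2 names under the minimum were Rpl39l, with 22 counts in all, and Rpl10l, with 3.

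RNA was sequenced from duodenum and liver of C57BL/6 mice, a common inbred strain, on a diet with fructose, with dextrose (the D form of glucose) or with corn starch as the control. Each of the 6 combinations had 5 libraries of polyA-selected RNA, with total counts of 14530137 to 19850935. The labels give no age, sex, sugar dose or length of feeding. Whether each library is 1 mouse or a pool is not stated either, so a p-value here weighs a difference against the scatter of the libraries, which may be partly technical. The summed level of 6 enterocyte markers was 19995 to 28075 CPM (a count scaled to a fixed library total) in the duodenum libraries and 196.5 to 1735 in the liver libraries, and that of 6 hepatocyte markers 0.76 to 186 in duodenum and 61138 to 94130 in liver. Pancreatic acinar markers stood high in duodenum control 3 (summed 129.6 CPM) and duodenum fructose 3 (52.6), against at most 0.860 in the other duodenum libraries. Hepatocyte markers stood high in duodenum control 5 (186), and cell cycle markers in liver dextrose 5 (253) and liver control 2 (234). Counts that rest on these 5 libraries were also taken without them. In liver the acinar markers were high in those same libraries (1175 in dextrose 5 and 238 in control 2), and also in control 5 (351), dextrose 4 (168), fructose 5 (72.2) and dextrose 2 (50.8), which were left out singly but not together. In whole tissue, fewer cells of a type and less RNA per cell cannot be told apart.

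Ribosomal proteins are made in balanced amounts, and cells spend much of their transcription on them. In mammals their mRNAs begin with a run of pyrimidines at the 5′ end, the terminal oligopyrimidine (TOP) tract, through which the kinase mTORC1 and the binding protein Larp1 control their translation according to nutrients. That control acts on translation, which was not measured here; the data are mRNA levels. Duodenal epithelium is renewed from dividing crypt cells, and liver makes much of the plasma's protein, so both tissues carry a high load of translation.

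The starts of the genes were read from the RefSeq promoter windows of the GRCm38.p6 assembly, which cover 250 bases before to 50 bases after an annotated start and which held 62 of the 82 genes. A run of at least 6 C or T letters that begins with a C, on the gene's strand and within 20 bases before to 30 bases after the start, was found for 45 of the 62 (72.6%), against 37.8% of the 27025 genes in the table. The 3 genes printed first carry a run across the annotated start, the next 3 are genes with a tissue difference or separation described further on, and the last 3 are tissue-different genes in which no such run was found. Each line gives 40 bases before to 20 bases after the start, 5′ to 3′, with the run in capitals.
Rps6 (chr4:86857348-86857407, minus strand): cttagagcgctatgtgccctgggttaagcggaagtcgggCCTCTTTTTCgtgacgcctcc
Rps10 (chr17:27635225-27635284, minus strand): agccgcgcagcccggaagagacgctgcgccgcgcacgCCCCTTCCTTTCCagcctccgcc
Rpl15 (chr14:18270967-18271026, minus strand): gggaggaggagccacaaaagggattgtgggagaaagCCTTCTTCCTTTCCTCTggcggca
Rps12 (chr10:23787190-23787249, minus strand): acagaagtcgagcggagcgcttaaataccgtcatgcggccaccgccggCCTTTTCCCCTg
Rpl18 (chr7:45718031-45718090, plus strand): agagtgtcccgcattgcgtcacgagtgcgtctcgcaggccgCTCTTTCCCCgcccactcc
Rps2 (chr17:24720023-24720082, plus strand): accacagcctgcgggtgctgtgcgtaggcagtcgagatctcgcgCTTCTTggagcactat
Rpl10 (chrX:74270776-74270835, plus strand): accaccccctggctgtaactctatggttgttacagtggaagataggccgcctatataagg
Rpl36al (chr12:69184048-69184107, minus strand): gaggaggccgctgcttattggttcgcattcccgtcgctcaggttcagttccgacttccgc
Rpl7l1 (chr17:46782637-46782696, minus strand): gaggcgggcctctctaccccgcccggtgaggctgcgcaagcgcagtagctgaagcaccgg
Counting the first transcribed base as position 1, the run began at position -1 in Rps6, -3 in Rps10 and -4 in Rpl15, and at positions 9, 2 and 5 in Rps12, Rpl18 and Rps2. Annotated starts can differ from the starts used in a tissue, so a run a few bases away is a match of letters only. Among other letters searched on both strands of the whole 300-base windows, CCGGAAG was in 40.3% of the 62 genes and 9.93% of all genes, AAGATGG in 16.1% and 7.28%, GGGCGG in 62.9% and 38.2%, and TATAAA in 11.3% and 15.7%. The 45 genes with a run had a median level of 413 FPKM in duodenum and 345 in liver, and the 17 without one 316 and 329.8. FPKM divides a count by gene length and library total, so it allows genes to be compared with each other.

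The 82 genes had a median of 392.3 FPKM in duodenum and 335 FPKM in liver, and 75 of them reached 100 FPKM in each tissue. Levels nevertheless ran over a wide range. Rpl41, which encodes a very short large-subunit protein, was highest in duodenum at 1343 ± 183 FPKM (SD, n = 15) and second in liver at 964 ± 247. Rps2, a small-subunit protein near the mRNA entry, was highest in liver at 1015 ± 139 FPKM and 9th in duodenum at 709.7 ± 161. The next in duodenum were Rps27 at 1058 ± 188 FPKM and Rps14 at 956 ± 130. In liver the third was Rplp1 at 854 ± 133 FPKM, a protein of the stalk that binds elongation factors. Among these leading genes the gaps between neighbours in rank were smaller than the SD between libraries, except for the step from Rpl41 to Rps27 in duodenum. Small-subunit genes had a median of 489.8 FPKM in duodenum and 421 in liver, and large-subunit genes 340.4 and 305. The order of the 82 genes was much the same in both tissues, with a Spearman correlation of 0.936 across genes, which share libraries and gene lengths. Among the 200 genes with the highest FPKM, 22 were ribosomal protein genes in duodenum and 17 in liver, and 2 in each tissue were among the top 100.

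At the low end, 7 genes were under 100 FPKM in each tissue. Rps15a had 97.8 ± 18.2 FPKM in duodenum and 65.8 ± 13.0 in liver, and Rpl35 had 81.5 ± 16.7 and 60.6 ± 13.6. Rpl7l1, Rpl23a and Rpl22l1 were lower again, at 23.9 ± 3.37, 18.6 ± 3.99 and 18.5 ± 3.44 FPKM in duodenum and 30.5 ± 4.10, 18.0 ± 2.24 and 15.996 ± 3.84 in liver. The row named Rpl24 held 38 counts over the 15 duodenum libraries and 45 over the 15 liver libraries, and Rpl3l, a paralog of Rpl3 known from skeletal muscle and heart, held 8 and 100, of which 33 lay in 1 liver library. Neither passed the filter on low counts, so 80 genes were tested. This family has many processed pseudogenes, and the sources used here do not say how reads matching more than one copy were counted, which leaves the level of one gene against another uncertain. The 273 rows named as pseudogenes of these genes held 15450 counts in all, and Rpl10a-ps1 led them with 1995. An annotation of the GRCm38 assembly (GENCODE M21) places another gene over 49 of the 82, a small nucleolar RNA gene over 30 of them, and whether counting used strand is not given either.

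**Figure D1:**
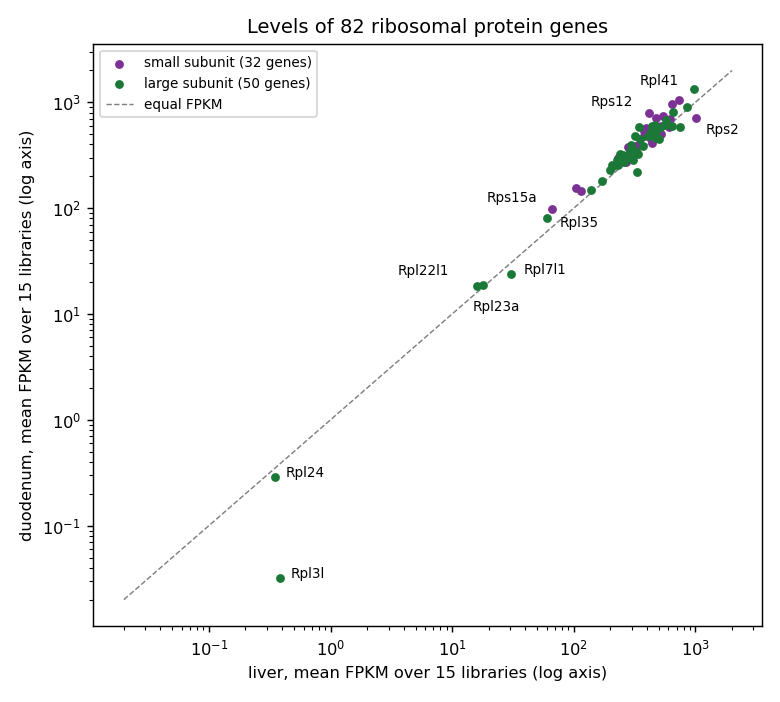
Mean FPKM over 15 libraries of each of the 82 genes in duodenum (vertical, log axis) against liver (horizontal, log axis), with small-subunit genes in purple and large-subunit genes in green. Most genes lie between 100 and 1343 FPKM near the line of equal values; Rps2 and Rpl7l1 lie to its liver side and Rps12 to its duodenum side, and Rpl24 and Rpl3l lie under 1 FPKM.

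Paralogs were set against their main copies by FPKM. Rpl22l1 was at 12.4 ± 1.71% of Rpl22 in duodenum and 11.5 ± 2.44% in liver (SD, n = 15 each). Rpl7l1, a relative of Rpl7 linked to assembly of the large subunit, was at 6.92 ± 0.510% of Rpl7 in duodenum and 10.6 ± 1.52% in liver. Rps27l, known as a target of p53, was at 39.7 ± 6.23% of Rps27 in duodenum, where libraries ran from 29.1% to 51.0%, and at 61.8 ± 8.34% in liver, where they ran from 50.8% to 79.0%. Rpl36al matched Rpl36a in duodenum, at 97.4 ± 15.97%, and exceeded it in liver, at 167 ± 21.5%. Rpl3l was at most 0.780% of Rpl3 in any library. Within duodenum the mean share of Rps27l was 45.6 ± 5.69% on fructose, 39.1 ± 2.199% on dextrose and 34.3 ± 4.14% on control (n = 5 each), and 37.2 to 51.0% in single fructose libraries against 29.1 to 40.1% in control libraries, which overlap.

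The first question the design puts to these genes is whether fructose or dextrose changed them in duodenum. The 82 genes held 3.46, 2.54, 2.40, 2.21 and 1.87% of all counts in the fructose libraries 1 to 5, 2.21, 2.28, 2.47, 2.74 and 2.08% in the dextrose libraries, and 2.66, 2.96, 2.63, 2.80 and 2.61% in the control libraries. On each sugar, 4 of the 5 libraries lay under the lowest control. Fructose 1 lay above all controls, and dextrose 4 lay among them. In liver the shares were 1.93, 2.23, 2.11, 2.58 and 2.203% on fructose, 2.46, 1.92, 1.99, 1.44 and 2.29% on dextrose, and 2.45, 2.27, 2.40, 1.76 and 2.78% on control, with all 3 groups overlapping. The summed small-subunit count was 0.741 to 0.831 of the large-subunit count in duodenum and 0.687 to 0.761 in liver.

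**Figure D2:**
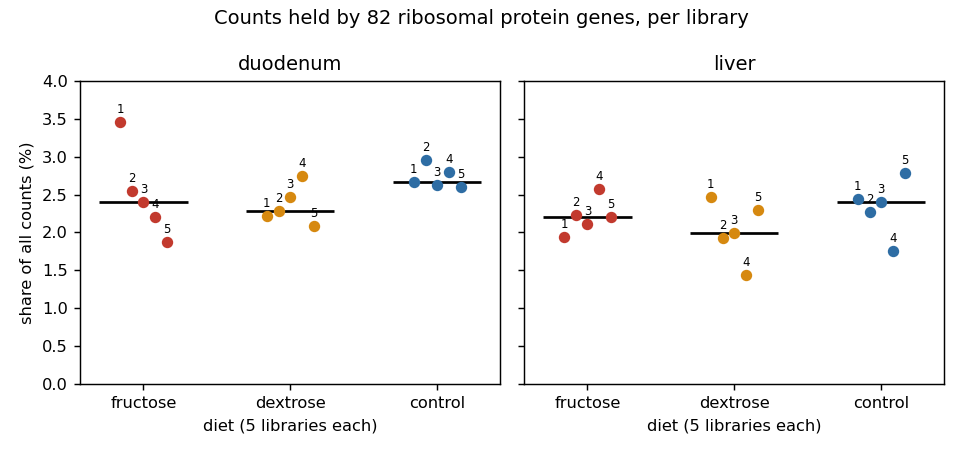
Share of all counts held by the 82 genes, in percent (vertical), in each library (points, numbered by replicate) of the fructose, dextrose and control groups in duodenum and liver, with the median of 5 as a line. Duodenum fructose libraries run from 1.87 to 3.46% and duodenum controls from 2.61 to 2.96%.

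In the duodenum, 0 of the 80 genes tested changed with fructose against control (edgeR quasi-likelihood test, Benjamini-Hochberg adjusted p under 0.05), where 6.71% of the 13884 genes tested were called. One had an unadjusted p under 0.05, and DESeq2 and limma also called 0. The fold changes were small: their median was -0.09 on the log2 scale, against -0.02 over all genes tested, 17 were positive and 63 negative, and they ran from -0.28 to 0.13. The 95% intervals of the 80 genes lay between -0.54 and 0.44, so that a change of 1 log2 unit was outside each of them. The median rested on single libraries: it was -0.20 without fructose 1 and 0.0027 without fructose 5. Rps27, a zinc-binding small-subunit protein, had the smallest p: 519.6, 434, 443, 535 and 383 TMM-scaled CPM on fructose, against 523, 599, 577, 657 and 453 on control, a log2 fold change of -0.28 ± 0.12 (SE; adjusted p = 0.217). The groups overlap, with fructose libraries 1 and 4 among the control values. Rpl17 (-0.22 ± 0.13, adjusted p = 0.364) and Rpl30 (-0.19 ± 0.11, adjusted p = 0.367), both of the large subunit, came next. TMM-scaled CPM are CPM after a correction for library composition. They were used for the levels of single genes in each library and for deviations between libraries. Shares of counts and marker sums took plain library totals, and paralog shares took FPKM.

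With dextrose against control in duodenum, the fitted fold change was negative for all 80 genes, with a median of -0.20 against -0.01 over all genes, but 0 were called, where 2.25% of all genes were. An unadjusted p under 0.05 was found for 7 of the 80, and for 1501 of the 13884 genes tested; DESeq2 and limma called 0. The genes rise and fall together from library to library, as described next, so 80 negative signs are not 80 separate observations. Rps25, a small-subunit protein, had 249.8, 259.7, 271, 318 and 257 CPM on dextrose, against 342, 315, 297, 445 and 298 on control, a log2 fold change of -0.32 ± 0.12 (adjusted p = 0.251). Dextrose library 4 lies among the control values there. Rps15a had -0.30 ± 0.13 (adjusted p = 0.368). Rpl6, a large-subunit protein, had 279, 285, 294, 311 and 236 CPM on dextrose, against 380.2, 375, 324, 315 and 327 on control, a log2 fold change of -0.29 ± 0.13 (adjusted p = 0.386). Its dextrose libraries all lay under its controls, as did those of Rps3, Rps4x and Rpl14, 4 of the 80 genes in all, while 1.7% of all genes were lower in dextrose without overlap. The lowest bound of any of the 80 intervals was -0.58 and the highest 0.24. The median stayed negative without any single library, from -0.26 without dextrose 4 to -0.13 without dextrose 5.

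Fructose against dextrose in duodenum gave 0 called genes, where 3.64% of all genes were called, and 0 with an unadjusted p under 0.05. The median was 0.12, against -0.01 over all genes, and 79 of 80 fold changes were positive. It was 0.0034 without fructose 1 and 0.20 without fructose 5. Rpl36al had 193, 218, 205, 215 and 184 CPM on fructose, against 176, 185, 159.6, 204 and 142 on dextrose, a log2 fold change of 0.23 ± 0.11 (adjusted p = 0.338), with overlapping groups. Rpl10 had 0.15 ± 0.08 (adjusted p = 0.376) and Rpl29 0.21 ± 0.11 (adjusted p = 0.381). The 3 duodenum comparisons share their groups in pairs, so their medians are not separate results.

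In the liver, fructose against control called 0 of the 80 genes, where 0.258% of the 13178 genes tested were called, and 0 had an unadjusted p under 0.05. The median was -0.04, against -0.03 over all genes, with 26 positive and 54 negative. It was -0.13 without control 4 and 0.04 without control 5. Rpl10a had 185, 223, 189.7, 235 and 187 CPM on fructose, against 254, 221, 279.9, 187 and 309 on control, a log2 fold change of -0.29 ± 0.15 (adjusted p = 0.460), and 4 of the 5 fructose values fall inside the control range. Rpsa, the laminin-receptor protein of the small subunit, had -0.26 ± 0.16 (adjusted p = 0.553) and Rps29 0.19 ± 0.13 (adjusted p = 0.588). The intervals of the 80 genes lay between -0.61 and 0.61.

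Dextrose against control in liver called 0 of the 80 genes and 0% of all 13178 genes; 1 of the 80 and 554 of all genes had an unadjusted p under 0.05. The median was -0.24, against 0.01 over all genes, and 79 of 80 fold changes were negative. The median was -0.34 without dextrose 1 and -0.135 without dextrose 4. The gene with the small p was Rpl7l1, at 62.8, 67.6, 76.3, 67.3 and 78.0 CPM on dextrose, against 83.1, 79.0, 85.7, 84.8 and 92.2 on control, a log2 fold change of -0.27 ± 0.09 (adjusted p = 0.922). It was also the only one of the 80 whose dextrose libraries all lay under the controls, where 0.197% of all genes did. Rps26 had -0.22 ± 0.11 and Rpl8 -0.26 ± 0.14, each with an adjusted p of 0.922. The intervals were wider than in duodenum, with a lowest bound of -0.88 and a highest of 0.52, and 20 of the 80 lay within 0.5 log2 units of no change, against 54 of 80 for the same diets in duodenum.

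Fructose against dextrose in liver called 0 of the 80 genes, where 0.0759% of all genes were called; 3 had an unadjusted p under 0.05. The median was 0.19, against -0.03 over all genes, and 78 of 80 were positive. It was 0.29 without dextrose 1 and 0.09 without dextrose 4. Rpl7l1 had 79.0, 83.8, 89.1, 74.9 and 88.1 CPM on fructose, against 62.8, 67.6, 76.3, 67.3 and 78.0 on dextrose, a log2 fold change of 0.24 ± 0.09 (adjusted p = 0.413), with 2 dextrose libraries above the lowest fructose library. Rpl38 had 0.37 ± 0.16 (adjusted p = 0.467) and Rps27l 0.40 ± 0.19 (adjusted p = 0.526). DESeq2 and limma called 0 of the genes in each of the 3 liver comparisons as well.

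**Figure D3:**
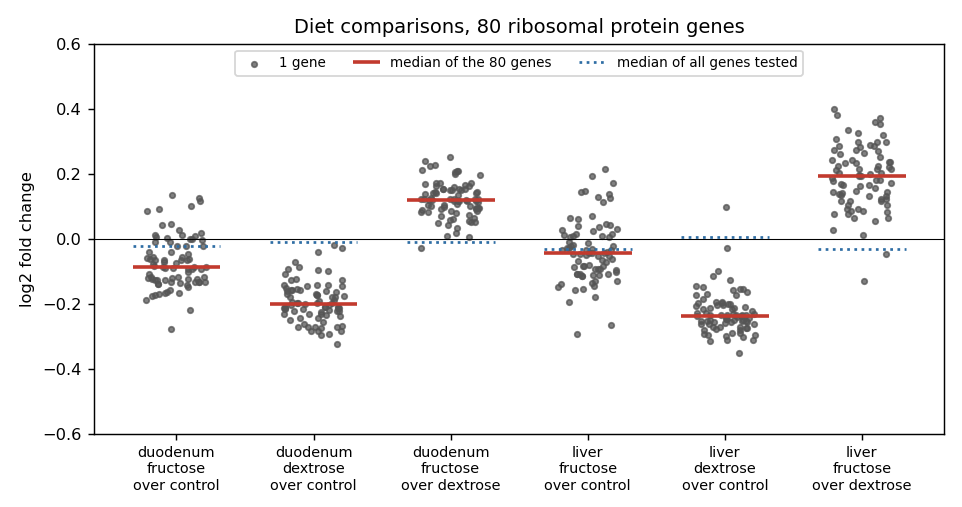
Log2 fold changes (vertical) of the 80 genes tested in each of 6 diet comparisons, with the median of the 80 (red line) and of all genes tested (dotted blue line). The 80 genes lie close together around medians of -0.09, -0.20 and 0.12 in duodenum and -0.04, -0.24 and 0.19 in liver, and no gene passed the test.

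Large- and small-subunit genes had like medians in the diet comparisons. For dextrose against control they were -0.19 (48 large-subunit genes) and -0.21 (32 small-subunit genes) in duodenum, and -0.24 and -0.25 in liver. Genes with a pyrimidine run at the start and those without had medians of -0.21 (45 genes) and -0.16 (15 genes) in duodenum and -0.24 and -0.23 in liver. Whether a diet effect differed between the tissues was tested by an interaction in a fit to all 30 libraries. For fructose 0 of the 80 genes were called, where 1.08% of 15268 genes were, with a median difference of -0.02 (duodenum minus liver), and Rpl22 had the smallest p (-0.23 ± 0.19, adjusted p = 0.656). For dextrose 0 were called, where 0.118% of all genes were, with a median difference of 0.05, and Rpl7l1 had the smallest p (0.27 ± 0.15, adjusted p = 0.784). In both, 0 of the 80 had an unadjusted p under 0.05, and DESeq2 and limma called 0. The 95% intervals of these differences lay between -0.87 and 0.73.

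Libraries of the same group differed by a shift that nearly all of these genes shared. Deviations from the mean of the own group were taken on log2 TMM-scaled CPM. In duodenum fructose 1, 78 of the 80 genes were above the fructose mean, with a median of 0.42, and in fructose 5 all 80 were below it, with a median of -0.34. In the dextrose group, 78 were above in library 4 (0.22) and all 80 below in library 5 (-0.23). In the liver dextrose group, 78 were above in library 1 (0.36) and 79 below in library 4 (-0.45). Among the liver controls, 78 and 76 were above in libraries 3 and 5 (0.19 and 0.31), and 79 and 80 below in libraries 2 and 4 (-0.30 and -0.32). At least 72 of the 80 lay on 1 side in 5 of the 15 duodenum libraries and 9 of the 15 liver libraries. The median deviation of all genes ran from -0.01 to 0.01 over the 30 libraries. TMM scaling centres the bulk of genes between libraries, so that median is largely set by the scaling.

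**Figure D4:**
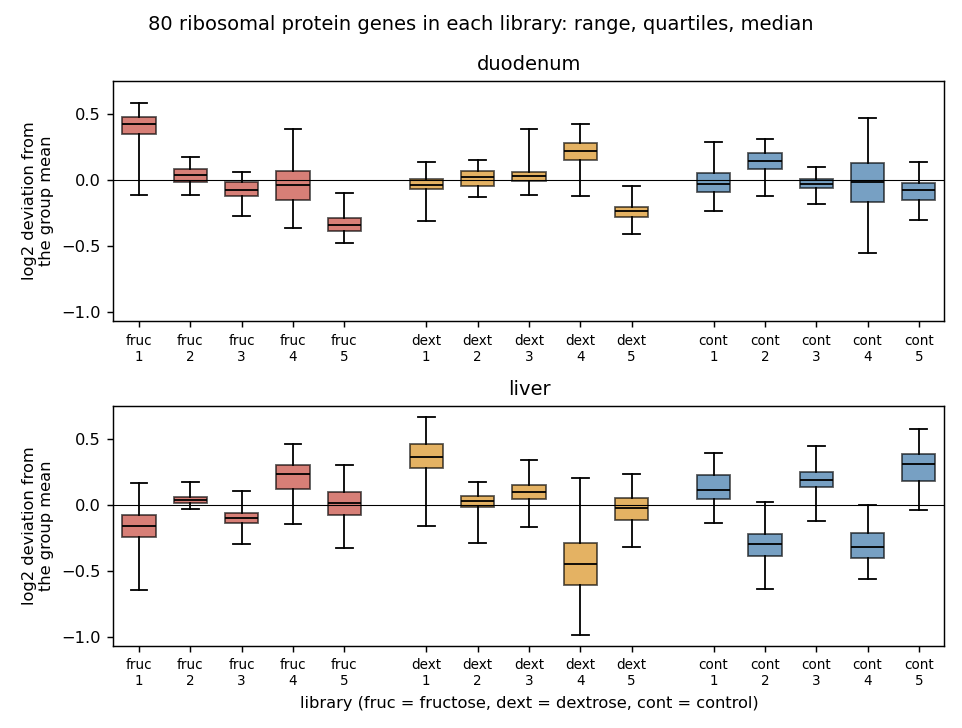
Log2 deviation of the 80 genes from the mean of their own group (vertical) in each of the 30 libraries, with the range as whiskers, quartiles as the box and the median as a line. Whole boxes lie above 0 in duodenum fructose 1 and liver dextrose 1 and below 0 in duodenum fructose 5 and liver dextrose 4, and the spread of the genes is widest in liver dextrose 4 and duodenum control 4.

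The shared shift made up much of the spread of most of these genes, but not of all. The median SD of a gene within groups was 0.21 in duodenum and 0.27 in liver, against 0.22 and 0.26 over all genes tested and 0.17 and 0.27 over the 964 genes of like level in each tissue. After subtraction of each library's median over the 80 genes it was 0.10 and 0.13. Among the genes with the most spread afterwards were Rps27l in duodenum (0.27) and Rpl23a in liver (0.31). In both the subtraction raised the SD, from 0.22 and 0.14, as it did for Rpl7l1 in liver (0.11 to 0.27) and some others. Such genes did not follow the shift. The shift was compared with other gene lists in the same libraries. In liver the median deviation of the mitochondrial ribosomal protein genes, encoded in the nucleus for the mitochondrion's own ribosome, had the same sign in 15 of 15 libraries, as did that of 85 oxidative phosphorylation genes, and that of 3106 other genes of like length (430 to 1607 bases) in 14. In duodenum, with 83 oxidative phosphorylation genes and 3156 of like length, these were 10, 9 and 10 of 15. Marker levels went with some of the shifts. Among the duodenum fructose libraries, number 1 had the highest summed CPM of the crypt stem cell markers (306), the cell cycle markers (326) and the Paneth cell markers (3223), while number 5 had 54.9, 124 and 354, the lowest stem and Paneth values of the group. The dextrose libraries 4 and 5, also apart, had close values for stem (101 and 106) and cell cycle markers (199.9 and 178), while Paneth markers were higher in library 4 (1802 and 851) and smooth muscle markers lower (400.0 and 860.3). In liver, control 2 carried the cell cycle signal named above (234), and control 4, with a like median deviation, did not (5.55). As a share of all counts the ribosomal protein genes held 2.27% in control 2 and 1.76% in control 4. The TMM factor was 1.24 in control 2, against 0.91 to 0.98 in the other liver controls, so its low deviation depends on the scaling. The share of counts from mitochondrial genes moved with the shift in some groups and not in others. In liver it was 8.68% in dextrose 1 and 3.92% in dextrose 4, and 10.7% in fructose 4, where the ribosomal protein genes had a median deviation of 0.23, and 6.01% in fructose 1, where it was -0.16. Among the liver controls it was 4.75% in each of libraries 2 and 4, which had negative deviations. The mitochondrial share was 6.77% in library 5 and 4.27% in library 3, which had positive ones. In duodenum it was 3.54% in fructose 1 and 4.197% in fructose 5, and 5.18% in dextrose 4 and 5.06% in dextrose 5. The part of cell composition, of the mitochondrial share and of the scaling in these shifts was not tested.

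In a few libraries the genes also moved apart from each other. The SD of the 80 genes around their library median was 0.21 in duodenum control 4 and 0.16 in duodenum fructose 4, against 0.053 to 0.123 in the other duodenum libraries, and 0.23 in liver dextrose 4, against 0.045 to 0.153 in the other liver libraries. In duodenum control 4, Rps27l was 0.48 and Rps25 0.42 above the shared shift, and Rpl23 and Rpl4 were lowest, at -0.54 and -0.43. In duodenum fructose 4, Rps27l was 0.42 and Rps27 0.25 above, and Rps4x and Rpl4 were lowest, at -0.33 and -0.30. In liver dextrose 4, Rpl23a was 0.65 and Rps29 0.40 above, and Rps24 and Rpl41 were lowest, at -0.54 and -0.47.

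The 2 tissues were compared on the control diet. The fit called 13 of the 80 genes, or 16.2%, where 74.6% of the 15268 genes tested were called, so the share among ribosomal protein genes was well below the background. Of the 13, 4 were higher in duodenum and 9 lower, where 37.3% of all genes were called each way. The median of the 80 was -0.04, against -0.0027 over all genes, and the median size of a fold change was 0.14, against 1.07. Called genes were 1 higher and 6 lower of 48 in the large subunit, and 3 higher and 3 lower of 32 in the small subunit. How many lay on each side depended on the scaling between tissues: upper-quartile factors gave 1 higher and 19 lower, and limma on log2(FPKM + 1), which has no composition factor, 30 higher and 4 lower of 80, with a median of 0.27 where that of all genes was 0.22. Liver control 2, the library with the cell cycle signal, also had the highest enterocyte marker sum of the liver libraries (1735 CPM). Leaving it out gave 2 higher and 17 lower. Leaving out liver control 4 gave 2 and 13, and leaving out duodenum control 2 gave 2 and 10. Without the 5 libraries set apart there were 1 higher and 8 lower, and without any other single control library 3 to 6 higher and 6 to 7 lower. The 5 genes described next were called in the same direction under each alternative run.

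Rps12, a small-subunit protein, was higher in duodenum. It had 314, 389, 376, 426 and 315 CPM in duodenum, against 273, 193, 220.0, 159 and 259 CPM in liver, a log2 fold change of 0.72 ± 0.19 (adjusted p = 0.00113), with no overlap. It had 0.50 and 0.74 in the same contrast on the 2 sugar diets.

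Rpl36al was lower in duodenum, with 201, 187, 155, 133 and 163 CPM in duodenum, against 358, 238, 407, 247 and 421 CPM in liver, which is -0.99 ± 0.17 on the log2 scale (adjusted p = 6.7e-06). The 5 liver values fall in a wide range, all above the duodenum values. The annotation places a same-strand gene, Gm49383, over it.

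Rps2 had 670.2, 619, 508, 441 and 573 CPM in duodenum, against 1055, 689.8, 1269, 917 and 1359 CPM in liver, which is -0.91 ± 0.17 on the log2 scale (adjusted p = 2.5e-05). The lowest liver library, control 2, was close to the highest duodenum library. Rps2 overlaps Snhg9 on the other strand, which held 2 counts in all.

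Rpl7l1 had 54.9, 63.0, 53.9, 43.5 and 61.3 CPM in duodenum, against 91.0, 87.1, 95.6, 93.7 and 104 CPM in liver, which is -0.77 ± 0.10 on the log2 scale and the smallest p of the 80 (adjusted p = 1.3e-07). The duodenum values kept within 43.5 to 63.0 and the liver values within 87.1 to 103.9.

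Rpl10, which joins the large subunit late in its assembly, had 353, 402, 365, 391 and 354 CPM in duodenum, against 600.3, 467, 778, 541 and 669 CPM in liver, a log2 fold change of -0.71 ± 0.11 (adjusted p = 1.6e-06). Over all 30 libraries its highest duodenum value, 434, stayed under its lowest liver value, 452. On the control diet, 1 of the 80 genes was higher and 4 were lower with no overlap between the tissues, which held for 28.9% and 27.5% of all genes.

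**Figure D5:**
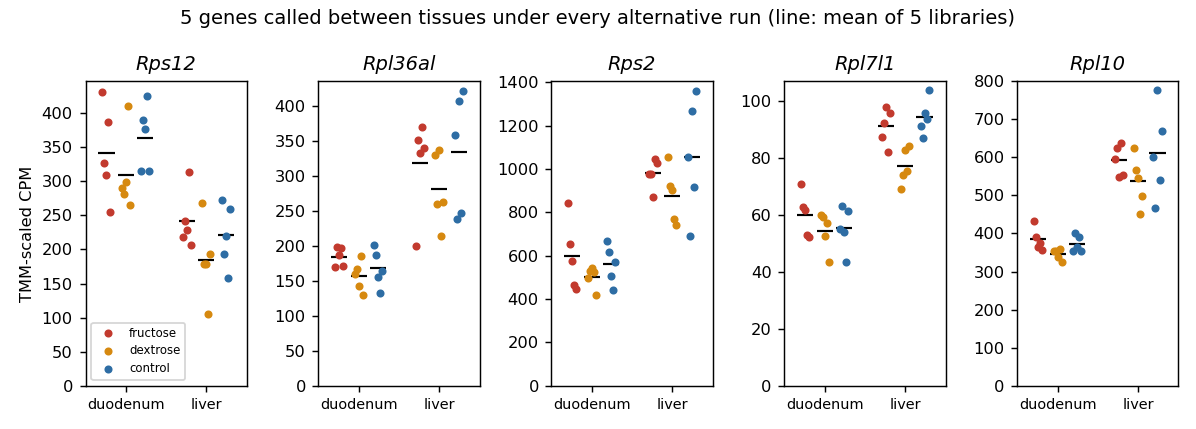
TMM-scaled CPM (vertical, from 0) of Rps12, Rpl36al, Rps2, Rpl7l1 and Rpl10 in each duodenum and liver library, coloured by diet, with the mean of 5 libraries as a line. Rps12 stands higher in duodenum and the other 4 genes in liver on each diet; single libraries of different diets overlap for all but Rpl10.

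The other 8 called genes had smaller differences. Rpl18 (0.44 ± 0.15, adjusted p = 0.0125), Rps15a (0.34 ± 0.15, adjusted p = 0.0455) and Rps20 (0.28 ± 0.12, adjusted p = 0.0423) were higher in duodenum. Rpl18 overlaps the protein-coding gene Sphk2 on the other strand, which held 63358 counts in all. Rpl11, which with Rpl5 and 5S rRNA can bind the p53 regulator Mdm2, had -0.49 ± 0.15 (adjusted p = 0.00467), and Rpl4 had -0.42 ± 0.13 (adjusted p = 0.00421). Rps27l had -0.42 ± 0.17 (adjusted p = 0.0273), Rpsa -0.35 ± 0.16 (adjusted p = 0.0472) and Rpl6 -0.31 ± 0.13 (adjusted p = 0.0346). Rpl11, Rpl4 and Rpl18 stayed past the threshold without any single library, but Rpl18 had an adjusted p of 0.0810 without the libraries set apart, and Rpl11 and Rpl4 had adjusted p of 0.353 and 0.379 by limma on log2(FPKM + 1). The other 5 calls each depended on single libraries. Rps15a had an adjusted p of 0.106 and 0.109 without duodenum control 2 or 4, and 0.07525, 0.0557 and 0.142 without liver control 2, 3 or 4. Rps20 had 0.147 and 0.0523 without duodenum control 2 or 3, and 0.109 and 0.129 without liver control 2 or 4. Rps27l had 0.0523 to 0.0714 without duodenum control 1, 2, 3 or 5, and 0.0766 and 0.0960 without liver control 1 or 5. Rpsa had 0.0698 to 0.1003 without duodenum control 1, 3, 4 or 5, and 0.0805 to 0.149 without liver control 1, 3 or 5. Rpl6 had 0.0641 to 0.0797 without duodenum control 3, 4 or 5, 0.0939 and 0.111 without liver control 3 or 5, and a log2 difference of 0.0079 by limma on log2(FPKM + 1). A measure that needs no scaling between tissues is the level of a gene against the median of the 80 genes in its own library. By it, 4 of the 80 genes were higher in duodenum than in liver without overlap of 15 against 15 libraries, 4 were lower and 72 overlapped. The share of all genes that separates by this measure is not given here, so these counts have no background beside them. Rps12 (0.73 log2 units), Rpl18 (0.56) and Rps10 (0.22) were among the higher ones, and Rps2 (-0.75), Rpl10 (-0.59) and Rpl11 (-0.38) among the lower ones. Rpl36al (-0.79) and Rpl7l1 (-0.57) had mean differences of like size, but their libraries overlapped by this measure.

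Other parts of the ribosome's supply were read from the same fits. Of the ribosomal proteins with other names, Fau, whose product carries a ubiquitin-like part fused to a small-subunit protein, was higher in duodenum on the control diet (1.10 ± 0.18, adjusted p = 2.6e-06). Gnb2l1, the scaffold protein known as Rack1, did not pass (-0.16 ± 0.15, adjusted p = 0.344). Neither was called for a diet. The counts that follow stand against 37.3% of all genes called higher and 37.3% called lower in this contrast. Of 33 genes of ribosome biogenesis, 2 were higher and 24 (72.7%) lower in duodenum, with a median of -0.81: Gnl3, a nucleolar GTPase, had -1.92 ± 0.20 (adjusted p = 6.8e-10), and Eif6, which keeps the large subunit from joining too early, had 1.74 ± 0.21 (adjusted p = 1.4e-08). Of 14 genes for RNA polymerase I and its factors, which transcribe ribosomal RNA, 3 were higher and 8 (57.1%) lower. Of 18 mTORC1 and TOP regulators, 2 were higher and 13 (72.2%) lower, among them Larp1 (-1.30 ± 0.14, adjusted p = 2.4e-09). Of 15 translation factors with TOP mRNAs, 3 were higher and 4 (26.7%) lower. Of 76 mitochondrial ribosomal protein genes, 12 were higher and 33 (43.4%) lower. Their lower share was near that over all genes, and their higher share was below it.

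For diet, the calls in the same lists were single genes. With fructose against control in duodenum, Nop10, a protein of the RNA-guided modification complexes of ribosomal RNA, rose (0.49 ± 0.13, adjusted p = 0.0310), as 1 of 33 biogenesis genes (3.03%), whose median was 0.24. Mrpl48 rose (0.34 ± 0.10, adjusted p = 0.0421), as 1 of 76 mitochondrial ribosomal protein genes (1.32%), and 6.71% of all genes were called in this comparison. In liver, Gnl3 fell with fructose (-0.70 ± 0.12, adjusted p = 0.0282), as 1 of 33 biogenesis genes (3.03%) with a median of -0.33, where 0.258% of all genes were called. The difference of the fructose effect between the tissues passed for Gnl3 (1.10 ± 0.27, adjusted p = 0.0387), where the median of the 33 genes was 0.54 and that of the 80 ribosomal protein genes -0.02. With fructose against dextrose in duodenum, the elongation factor gene Eef1a1 was higher (0.45 ± 0.08, adjusted p = 0.00443) and Taf1b, of the polymerase I initiation factor, lower (-0.75 ± 0.20, adjusted p = 0.0412), each as 1 call in its list of 15 and 14 genes, where 3.64% of all genes were called. For dextrose against control, 0 genes of these lists were called in either tissue.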

How the data were processed

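RNA sequencing reads were turned by the authors into a count per gene and library, deposited as raw counts, and into deposited FPKM of those genes. The submitters' processing notes name DESeq 1.18.0, HTSeq 0.6.1, Bowtie2 2.2.3 and TopHat2 2.0.12. The genome build, the annotation, the strand setting and the handling of reads with several matches are not given in the sources used here. The deposited FPKM equal the counts over 1 length per gene and the library total, within 0.001 for 100% of values above 0.

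Counts were tested over all genes with edgeR 4.0.16 in R 4.3.3: TMM factors, filterByExpr by group, a robust quasi-likelihood F test, two-sided, and Benjamini-Hochberg adjustment over all genes tested, with a threshold of 0.05. Diets were compared in a fit of the 15 libraries of a tissue, and tissues and interactions in a fit of all 30. No replicate block was used. Levels between genes are in FPKM, and per-library values of single genes in TMM-scaled CPM. The code was tested on simulated counts. Libraries of a group were compared in pairs, and each pair differed beyond counting noise, with a chi-square of 8.23 or more per degree of freedom.

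The members, gene lists and tests were chosen with earlier results of these data known. Named genes are, per comparison, the called members with up to 6 rises and 6 falls, or else the 3 with the smallest p, plus paralogs and the 3 highest and lowest levels; genes set apart by library or without overlap between groups were chosen after their values were seen. Alternatives were RLE and upper-quartile factors, TMM without the members, no filter, at least 1 CPM in 5 libraries, DESeq2 1.42.0, limma 3.58.1 on log2(FPKM + 1) and log2(FPKM + 0.1), a replicate block, only the groups compared, leaving out the 5 libraries set apart and leaving out each library in turn. The tissue contrast in the fructose and in the dextrose libraries was added after seeing the data. Protein sequences were not used here, and some genes are not reported here.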

Additional observations from a re-analysis of the deposited data

Results flagged for a closer look

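A test for a single library far from the other 4 of its group was run on 174 groups in all. It covered the share of all counts held by the genes, the ratio of small- to large-subunit counts and the levels of 27 named genes. It singled out 9 of the 174, which is near the chance rate of about 1 in 20. No explanation was tested for any of them. In duodenum control 4 the small-subunit count was 0.831 of the large-subunit count, where its group otherwise had 0.746 to 0.769. In liver fructose 4 it was 0.761, against 0.727 to 0.735. Rps27l was high in 2 libraries: duodenum fructose 4 had 259.7 TMM-scaled CPM where the rest of its group had 184 to 189.6, and duodenum control 4 had 250.9 where its group otherwise had 154 to 174.5. Duodenum dextrose 5 was low for Rpl8, at 284 against 372 to 407 CPM, and for Rpl4, at 309.6 against 371 to 385. Rps12 was high in duodenum dextrose 4, at 452 against 289.9 to 333. Rps20 was high in duodenum control 2, at 315 against 246 to 258.5, and Rpl36al was low in liver fructose 1, at 181 against 304 to 338.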

How the results depend on the processing

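All 8 diet and interaction counts of called ribosomal protein genes were 0 and stayed 0 under each alternative, leaving out each library included. Of 1331 alternative values, 1246 kept their direction and call or stayed close to the value reported, 63 single-gene calls were lost, 20 moved and 2 turned direction. The control-diet tissue count of 13 (4 higher, 9 lower) was 20 (1 and 19) with upper-quartile factors, 34 (30 and 4) by limma on either FPKM scale, and 8 (2 and 6) in a fit of only the groups compared; it had 2 higher genes with no filter and 1 without the libraries set apart. Leaving out each control library in turn it was 9 to 19, with 2 to 6 higher and 6 to 17 lower, the highest without liver control 2. The median over the 80 genes, -0.04, was 0.27 and 0.28 by limma on the FPKM scales. Rpl6 turned direction by limma, at 0.0079 on both. With the replicate number as a block the tissue count was 11 (2 higher, 9 lower), all among the 13. That block joins equal numbers over all diets and both tissues, so it does not test pairing of duodenum and liver within a diet. Same-numbered libraries correlated from -0.51 to 0.54 in their deviations, 12 of 45 pairs over 0.1. Both extremes lay between liver dextrose and liver control, so they do not bear on pairing of tissues. Between duodenum and liver of the control groups the range was -0.03 to 0.07, with the same number the best match for 1 library. The fructose groups had 0.01 to 0.18 (3 best matches), and the dextrose groups -0.03 to 0.16 (2). These values do not decide whether tissues are paired by mouse. The tissue contrast took the libraries as unpaired and may hold paired samples. Counting error is small at these levels; the 5 libraries of a group set the precision.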
